A study of Mus musculus with 118 samples.

Results

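The muscarinic acetylcholine, α1-adrenergic and serotonin receptors were read in somatostatin-positive (SOM+) interneurons of the mouse neocortex. The set holds 10 genes, *Chrm1*, *Chrm2*, *Chrm3*, *Chrm4*, *Adra1a*, *Adra1b*, *Adra1d*, *Htr1a*, *Htr2a* and *Htr2c*, taken by name from the 23998 gene symbols of the count table. The cells came from adult SOM-Cre/Ai9 mice, in which Cre made under the control of the somatostatin gene switches on the red reporter tdTomato, so every group shares both alleles and none was treated. Each cell was recorded with a patch pipette in a brain slice, its content was drawn into the pipette, and its RNA was sequenced (Patch-seq). Cells were kept where they had at least 1500 genes with a count, no more counts of the excitatory marker *Slc17a7* than of *Gad1* plus *Gad2*, and at least 1 count of *Sst*. They formed 4 groups, with 42 of 44 labelled cells from layer 4 of the primary visual cortex (V1 L4), 34 of 39 from layer 4 of the primary somatosensory cortex (S1 L4), 17 of 19 from V1 layer 5 (V1 L5) and 16 of 16 from S1 layer 5 (S1 L5). The labels give neither the age of a mouse nor the mouse a cell came from. Each area and layer was therefore 1 sample, cells were not treated as replicates, and no test between groups was made. The dates in the cell names gave 9 recording days, in 2 series of which only the first holds L5 cells, and the spread between days is given. The study's methods name fewer mice than there were days, so some days may share a mouse and this cannot be read as a spread over animals.

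All 10 receptors are G protein-coupled. *Chrm1* and *Chrm3*, the α1-adrenergic receptors *Adra1a*, *Adra1b* and *Adra1d*, and the serotonin receptors *Htr2a* and *Htr2c* couple mainly to Gq, which activates phospholipase C and commonly depolarizes neurons. *Chrm2*, *Chrm4* and *Htr1a* couple to Gi/o, which lowers cyclic AMP, opens inwardly rectifying potassium channels and reduces transmitter release. Through these receptors acetylcholine from the basal forebrain, noradrenaline from the locus coeruleus and serotonin from the raphe nuclei change the firing of cortical interneurons, and cholinergic excitation of SOM+ cells is among the well known examples.

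The kept cells had between 97904 and 3295232 counts, with group medians from 1015272 to 1199868. *Sst* and *Gad1* were read in every kept cell. Genes of the vasoactive intestinal peptide interneuron list were at most at 17.3 CPM (counts scaled to the same library total) of the pooled counts in any group, and endothelial genes at most at 5.24 CPM. The oligodendrocyte list of 6 genes, which *Mbp* leads, was not near 0. In L4 it stood at 1091 CPM in S1 against 240 CPM in V1, in L5 at 698 CPM against 218 CPM, and it was thus higher in S1 in both layers, while single cells ran from 0 to 9510 CPM. Microglial genes were at 513 CPM in V1 L5 and at 128.5 to 238 CPM in the other groups, and astrocyte genes at 136.2 to 388 CPM. The parvalbumin gene *Pvalb*, the defining marker of another interneuron class, was read in 10 of 42 V1 L4, 18 of 34 S1 L4, 1 of 17 V1 L5 and 7 of 16 S1 L5 cells. Its pooled level was 11.4, 41.8, 1.14 and 11.8 CPM in the same order, and the median S1 L4 cell was at 1.46 CPM. Of the other genes of the parvalbumin interneuron list, *Tac1*, *Pthlh* and *Syt2* were each read in at most 1 cell of any group. *Kcnc1* was read in 42 of 42, 31 of 34, 17 of 17 and 16 of 16 cells.

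All but 5 of the kept cells (95.4%, 95% confidence interval 89.6 to 98.5%) had a count of at least 1 of the 10 receptors. A cell had counts of 3.22 ± 1.58 of them (mean ± SD over cells), and none had more than 6. In 37 cells all 3 transmitter families were read, in 41 cells 2 families, in 26 cells 1 family and in 5 cells none. At least 1 Gq-coupled receptor was read in 93.6% of the cells and at least 1 Gi/o-coupled receptor in 61.5%. A muscarinic receptor was read in 99 cells, a serotonin receptor in 63 and an α1-adrenergic receptor in 57. The intervals of these shares are exact binomial (Clopper-Pearson) intervals. They cover counting of cells only, and a cell without a count may still hold the transcript.

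**Figure D1:**
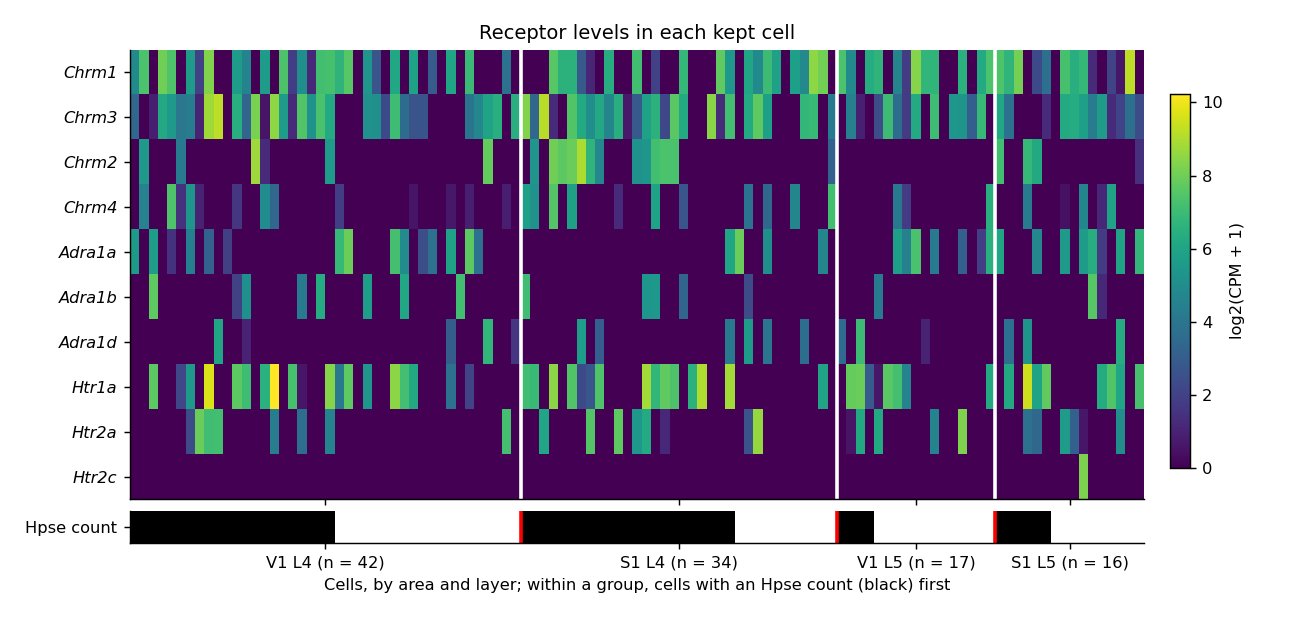
Level of each receptor (rows, log2(CPM + 1), colour scale) in each kept cell (columns), grouped by area and layer; the lower strip marks cells with a count of *Hpse* in black, and white and red lines divide the groups. *Chrm1* and *Chrm3* were read in most cells of each group, *Chrm2* mostly under the black strip, and *Htr2c* in a single S1 L5 cell.

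Levels of different genes were compared per transcript length, as the deposited RPKM (reads per kilobase of transcript, scaled to the library total), averaged over the kept cells. *Chrm3* (20.6 RPKM) and *Htr1a* (20.4 RPKM) came first, followed by *Chrm2* (14.9 RPKM), *Chrm1* (10.5 RPKM), *Htr2a* (7.2 RPKM) and *Adra1a* (6.72 RPKM). *Chrm4* (3.62 RPKM), *Adra1b* (3.15 RPKM), *Adra1d* (2.44 RPKM) and *Htr2c* (0.589 RPKM) were lowest. The spread over cells was larger than the mean for all 10 genes, for example 37.4 RPKM (SD) for *Chrm3* and 43.7 RPKM for *Htr1a*, so neighbours in this order did not differ beyond it. The order also depended on the gene model. With the pooled CPM divided by the length of the longest annotated transcript, *Htr1a* ranked 1, *Chrm3* ranked 2 and *Chrm2* ranked 6.

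*Chrm1*, the M1 receptor, maps to the plus strand of chromosome 19 (GRCm38, 8663789 to 8683587), and like the other muscarinic receptors it is coded by a single exon. It was read in 26 of 42 V1 L4 cells, 19 of 34 S1 L4 cells, 12 of 17 V1 L5 cells and 12 of 16 S1 L5 cells. The lowest, median and highest count in a V1 cell were 0, 17 and 290 in L4 and 0, 29 and 520 in L5. In an S1 cell they were 0, 7 and 544 in L4 and 0, 7.5 and 382 in L5. The groups overlapped over most of their range. The mean log2(CPM + 1) was highest in L5, at 4.33 in V1 and 3.87 in S1, followed by 3.42 in V1 L4 and 3.27 in S1 L4, and no step in this order exceeded the SD between recording days, which reached 2.32 in S1 L4.

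*Chrm3*, the M3 receptor, spans chromosome 13 from 9875486 to 10360847 on the minus strand, where 6 other annotated genes overlap it on either strand. Since the library kit does not mark the strand of origin, reads of such overlapping genes cannot always be told apart. It was the most widely read member, with 32 of 42 V1 L4 cells, 26 of 34 S1 L4 cells, 12 of 17 V1 L5 cells and 12 of 16 S1 L5 cells. The L4 cells of V1 held 0 to 830 counts (median 23) and those of S1 0 to 592 (median 62). The L5 medians were 6 counts in V1 and 7.5 in S1, and no L5 cell was above 132.8 CPM. The pooled level was 64.8 CPM in V1 and 83.5 CPM in S1 in L4, and 25.7 CPM and 28.7 CPM in L5, while the share of cells was 70.6 to 76.5% in all groups. In the first recording series, which alone holds L5 cells, V1 L4 was at 34.4 CPM, and its mean log2(CPM + 1) of 2.99 was below the 3.18 of V1 L5.

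*Chrm2*, the M2 receptor, which slows firing and acts as an autoreceptor on cholinergic terminals, lies on chromosome 6 from 36388084 to 36528414 on the plus strand and overlaps *9330158H04Rik* on the opposite strand and the microRNA gene *Mir490*. It had the greatest difference of mean level between the areas in each layer. It had counts in 13 of 34 S1 L4 cells (38.2%, 22.2 to 56.4%) and 4 of 16 S1 L5 cells (25%, 7.27 to 52.4%). In V1 it had counts in 6 of 42 L4 cells (14.3%, 5.43 to 28.5%) and 0 of 17 L5 cells, which allows a share of up to 17.6%. The median cell was at 0 in each group. The highest L4 cell reached 498.5 CPM in S1 and 424.4 CPM in V1, the highest S1 L5 cell 140.4 CPM, and the 13 S1 L4 cells that had any held from 9 to 884 counts. Most cells of every group were thus at 0, and the groups differed in how many cells stood above it. The pooled level was 50.1 CPM in S1 L4, 17.7 CPM in S1 L5, 13.7 CPM in V1 L4 and 0 CPM in V1 L5, where 3 counts would have been 0.156 CPM. Without the highest cell of each group the first 3 levels were 32.9, 11.3 and 6.57 CPM.

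*Chrm4*, the M4 receptor, shares its coupling with *Chrm2*. It lies on chromosome 2 from 91927249 to 91928688 on the plus strand, and GENCODE annotates only its coding exon there, while the RefSeq start used for the window printed below lies upstream of it. It was read in 13 of 42 V1 L4 cells, 11 of 34 S1 L4 cells, 3 of 17 V1 L5 cells and 5 of 16 S1 L5 cells. Its counts were low, with at most 181.1 CPM in any cell and a median of 2 counts in the V1 L4 cells that had any, against 51 in those of S1 L4. In V1 L4 8 of the 13 cells had fewer than 5 counts, and with 250000 reads drawn from each cell the share was 14.3% in place of 30.95%.

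The bases before the transcription start of *Chrm2* and *Chrm4* are shown because these paralogues couple to the same G protein but differed in the cells that held them, as described below. Sequences are from RefSeq on GRCm38.p6, 5′ to 3′ in the direction of transcription, with 250 bases before the RefSeq start of the gene. Capitals mark a GC box (GGGCGG or its complement) or a CCAAT box (CCAAT or its complement).
Chrm2, chr6:36387834-36388083, plus strand: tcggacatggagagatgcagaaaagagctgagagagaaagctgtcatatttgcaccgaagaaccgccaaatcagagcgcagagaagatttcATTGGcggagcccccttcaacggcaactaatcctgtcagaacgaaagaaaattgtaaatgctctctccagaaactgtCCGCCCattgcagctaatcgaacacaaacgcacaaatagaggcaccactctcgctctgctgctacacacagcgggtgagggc
Chrm4, chr2:91921939-91922188, plus strand: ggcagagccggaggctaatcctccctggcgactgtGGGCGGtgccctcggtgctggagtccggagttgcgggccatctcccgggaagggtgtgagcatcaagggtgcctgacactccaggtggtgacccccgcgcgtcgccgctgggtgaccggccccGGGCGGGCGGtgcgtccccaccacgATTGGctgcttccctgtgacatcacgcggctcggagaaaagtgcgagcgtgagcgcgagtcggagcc
The *Chrm2* window holds 1 GC box and 1 CCAAT box, 50.0% G or C and 12 CpG. The *Chrm4* window holds 3 GC boxes, of which 2 overlap, and 1 CCAAT box, 70.0% G or C and 26 CpG. Of all 32851 such windows, 32.7% hold a GC box and 33.9% a CCAAT box, and the median window has 52.4% G or C. Neither window holds a TATA box (TATAAA, in 12.4% of all windows) or a cyclic AMP response element (TGACGTCA, in 1.55%). These are descriptions of letters, and no binding was measured.

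*Adra1a*, the α1A-adrenergic receptor, lies on chromosome 14 from 66635251 to 66771168 on the plus strand, with 2 coding exons in its longest transcript. It was read in 15 of 42 V1 L4 cells (35.7%, 21.6 to 52.0%) but in 4 of 34 S1 L4 cells (11.8%, 3.30 to 27.5%). In L5 it was read in 7 of 17 V1 cells (41.2%) and 8 of 16 S1 cells (50.0%). The highest counts were close, at 246 and 240 in L4 of V1 and S1 and at 244 and 203 in L5, with a median of 0 in 3 groups and 1 in S1 L5. S1 L4 was thus the group with the fewest positive cells. Its 4 positive cells had a median of 49.2 CPM, against 29.6 CPM in those of V1 L4 and 21.8 and 55.5 CPM in those of V1 and S1 L5.

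*Adra1b* and *Adra1d*, the other α1 receptors, were read in few cells. *Adra1b* (chromosome 11, 43774606 to 43901210, minus strand) had counts in 16 cells (14.7%), of which 8 were from V1 and 5 from S1 in L4, and 1 from V1 and 2 from S1 in L5. *Adra1d* (chromosome 2, 131545850 to 131562283, minus strand) had counts in 17 cells (15.6%), with 5, 6, 3 and 3 cells in the same order. Single cells carried much of these totals. A V1 L5 cell with 303 counts gave 95.6% of the *Adra1d* counts of its group, and an S1 L5 cell at 188 CPM gave 99.3% of the *Adra1b* counts of its group.

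*Htr1a*, which mediates serotonergic inhibition, has a single exon on chromosome 13 from 105443639 to 105448122, on the plus strand. It was read in a nearly equal share of cells in each group, 19 of 42 V1 L4, 15 of 34 S1 L4, 8 of 17 V1 L5 and 8 of 16 S1 L5 cells. Where it was read, it was read at a high level. The L4 cells with any had a median of 190 counts in V1 and 209 in S1, with highest counts of 848 and 1041. The L5 cells with any had medians of 96.5 and 138.5, with highest counts of 579 and 590. Its pooled level, from 75.2 CPM in V1 L5 to 98.3 CPM in S1 L4, came from 44.1 to 50.0% of the cells of each group. Cells with a count of *Htr1a* were also deeper than those without, with medians of 1422144 against 969686 total counts, and its share was 45.9% before and 44.3% after 250000 reads were drawn from each cell that had as many.

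*Htr2a* (chromosome 14, 74640840 to 74709494, plus strand, 3 coding exons) was read in 8 of 42 V1 L4, 8 of 34 S1 L4, 5 of 17 V1 L5 and 6 of 16 S1 L5 cells, with counts of up to 371. This receptor, through which serotonin excites many cortical neurons, had a share of 19.05% to 37.5%, and the intervals of all 4 groups overlapped. *Htr2c* (chromosome X, 146962513 to 147197277, plus strand), an abundant receptor of other brain regions, was read in 1 cell (0.917%). That S1 L5 cell held 559 counts, and the 0 of 42 V1 L4 and 0 of 34 S1 L4 cells allow shares of up to 7.14% and 8.82%.

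**Figure D2:**
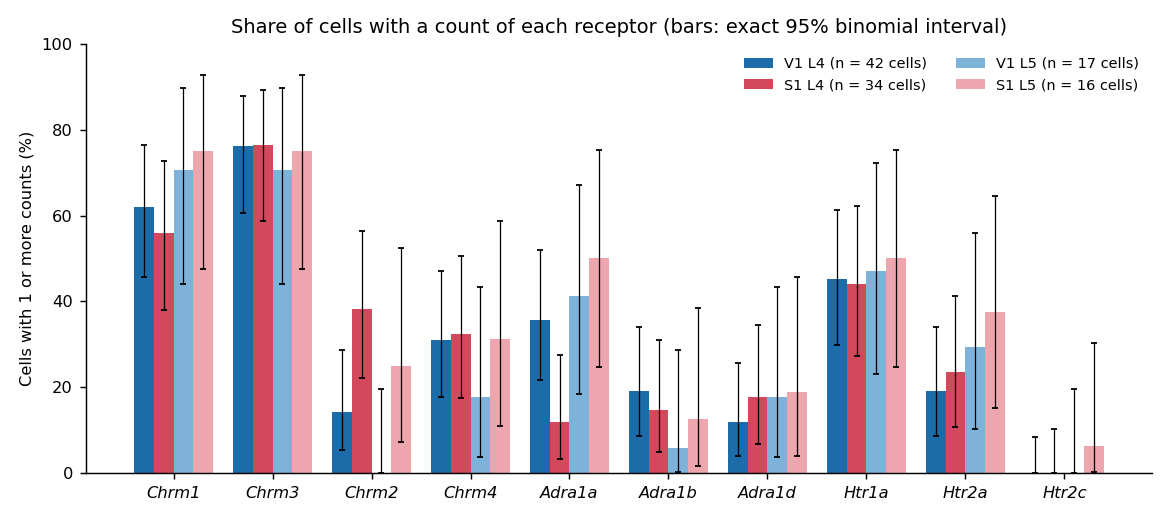
Share of kept cells with 1 or more counts (y axis, percent) of each receptor (x axis) in the 4 groups; error bars are exact 95% binomial intervals, which count cells and not animals. *Chrm2* ran from 0 of 17 V1 L5 cells to 13 of 34 S1 L4 cells and *Adra1a* from 4 of 34 S1 L4 cells to 8 of 16 S1 L5 cells, while *Chrm3* was at 70.6 to 76.5% in all groups.

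Of the set, *Chrm2*, *Htr1a* and *Adra1a* differed most between cells split by a gene that is not a receptor. *Hpse* encodes heparanase, which cuts heparan sulfate, and names a type of SOM+ interneurons in a reference dataset of cortical cells. Chosen after its values were seen, a count of *Hpse* divided the kept cells into 55 with and 54 without. *Chrm2* had counts in 20 of the 55 cells with *Hpse* (36.4%, 23.8 to 50.4%) and in 3 of the 54 without (5.56%, 1.16 to 15.4%). *Htr1a* followed the same side, with 32 of 55 (58.2%, 44.1 to 71.3%) against 18 of 54 cells (33.3%, 21.1 to 47.5%). *Adra1a* took the opposite side, with 9 of 55 (16.4%, 7.77 to 28.8%) against 25 of 54 cells (46.3%, 32.6 to 60.4%). The pooled levels in cells with and without *Hpse* were 44.5 and 3.08 CPM for *Chrm2*, 140 and 36.3 CPM for *Htr1a*, and 5.71 and 35.9 CPM for *Adra1a*. Of the 204 counts of *Chrm2* in cells without *Hpse*, 1 V1 L4 cell held 192, and the level was 0.183 CPM without it. Without the highest cell on the other side *Chrm2* was at 33.3 CPM, and *Adra1a* was at 3.77 CPM. Over all groups *Chrm1* (35 of 55 against 34 of 54 cells) and *Chrm4* (16 of 55 against 16 of 54 cells) were evenly divided. For *Chrm1* the areas took opposite sides in L4. In V1 L4 *Chrm1* was read in 16 of 22 cells with *Hpse* against 10 of 20 without, a difference of 22.7 percentage points. In S1 L4 it was read in 11 of 23 against 8 of 11 cells, a difference of −24.9 points. The L5 shares were 3 of 4 against 9 of 13 cells in V1 and 5 of 6 against 7 of 10 in S1.

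**Figure D3:**
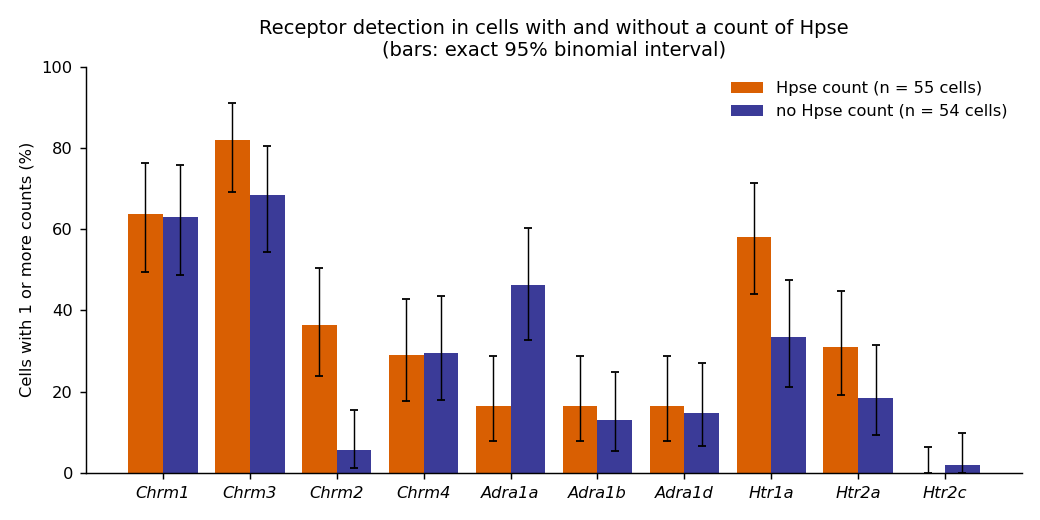
Share of cells with 1 or more counts (y axis, percent) of each receptor (x axis) among the 55 cells with a count of *Hpse* and the 54 cells without; error bars are exact 95% binomial intervals, which count cells and not animals. The share of *Chrm2* is larger and that of *Adra1a* smaller among the cells with *Hpse*, and the bars of *Chrm1* and *Chrm4* are level over all groups together.

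In this split 3 of the 8 receptors past the count filter (32 or more counts in at least 10 cells) differed by 20 percentage points or more, against 3.25% of the 9992 genes compared. The split was chosen after the values were seen, so this contrast is a description only and cannot be taken as support. Of the 9992 genes, 1.73% were higher and 1.52% lower by that much, and of the genes read in 10 to 90% of the cells, where a difference of this size is easier to reach, 3.6% passed. The 2 sets of cells had similar depth, with medians of 1168455 and 1065754 counts and of 6064 and 6751.5 genes. With 250000 reads drawn from each cell the shares of *Chrm2* were 37.7% and 5.66%. The sets differed in make-up, with 22 against 20 V1 L4, 23 against 11 S1 L4, 4 against 13 V1 L5 and 6 against 10 S1 L5 cells. The first recording series gave 29 of the 55 and 41 of the 54 cells. Shares over all cells therefore also mix area, layer and series. Over the 8 recording days with at least 2 cells of each kind, *Htr1a* was higher with *Hpse* on 7 days and lower on 1, by 29.38 ± 23.97 percentage points (mean ± SD over days). *Adra1a* was lower on 6 days, equal on 1 and higher on 1, by −29.0 ± 30.2 points. *Chrm2* was higher on 6 days and lower on 2, by 20.5 ± 37.1 points, so that for *Chrm2* and *Adra1a* the spread between days exceeded the mean. In the second recording series *Chrm2* was read in 8 of 26 against 2 of 13 cells, a difference of 15.4 points, and without the fourth recording day *Htr1a* differed by 19.7 points.

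The direction of *Htr1a* and *Adra1a* held in each of the 4 groups taken alone, but not always its size. In V1 L4 the differences were 10 points for *Htr1a*, −17.7 for *Adra1a* and 17.7 for *Chrm2*, all under 20 points. *Htr1a* was read in 11 of 22 against 8 of 20 V1 L4 cells with and without *Hpse*, 14 of 23 against 1 of 11 S1 L4 cells, 3 of 4 against 5 of 13 V1 L5 cells and 4 of 6 against 4 of 10 S1 L5 cells. *Adra1a* was read in 6 of 22 against 9 of 20 V1 L4 cells, 1 of 23 against 3 of 11 S1 L4 cells, 0 of 4 against 7 of 13 V1 L5 cells and 2 of 6 against 6 of 10 S1 L5 cells. *Chrm2* was read in 5 of 22 against 1 of 20 V1 L4 cells, 12 of 23 against 1 of 11 S1 L4 cells and 3 of 6 against 1 of 10 S1 L5 cells, with no count in V1 L5. *Chrm3* changed side between layers, with 20 of 22 against 12 of 20 and 20 of 23 against 6 of 11 cells in L4 of V1 and S1, but 2 of 4 against 10 of 13 and 3 of 6 against 9 of 10 cells in L5. The oligodendrocyte list was at 795 CPM in the cells with *Hpse* and 368 CPM in those without. The Lamp5 interneuron list was at 817 and 430 CPM, of which *Reln* alone gave 808 and 386 CPM. Its other genes *Lamp5*, *Ndnf*, *Npy2r* and *Rxfp1* were lower in the cells with *Hpse*, for example *Ndnf* at 3.57 against 23.1 CPM. *Pvalb* was read in 20 of 55 and 16 of 54 of these cells. Without the cells that had a *Pvalb* count *Chrm2* was read in 11 of 35 against 2 of 38 cells and *Adra1a* in 3 of 35 against 18 of 38, and without those that had an *Mbp* count *Chrm2* was read in 8 of 13 against 0 of 11 cells and *Adra1a* in 3 of 13 against 3 of 11. *Htr1a* differed by 17.4 points without the *Pvalb* cells and by 49.7 points without the *Mbp* cells. The part of these other cell type genes in the result was otherwise not tested.

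**Figure D4:**
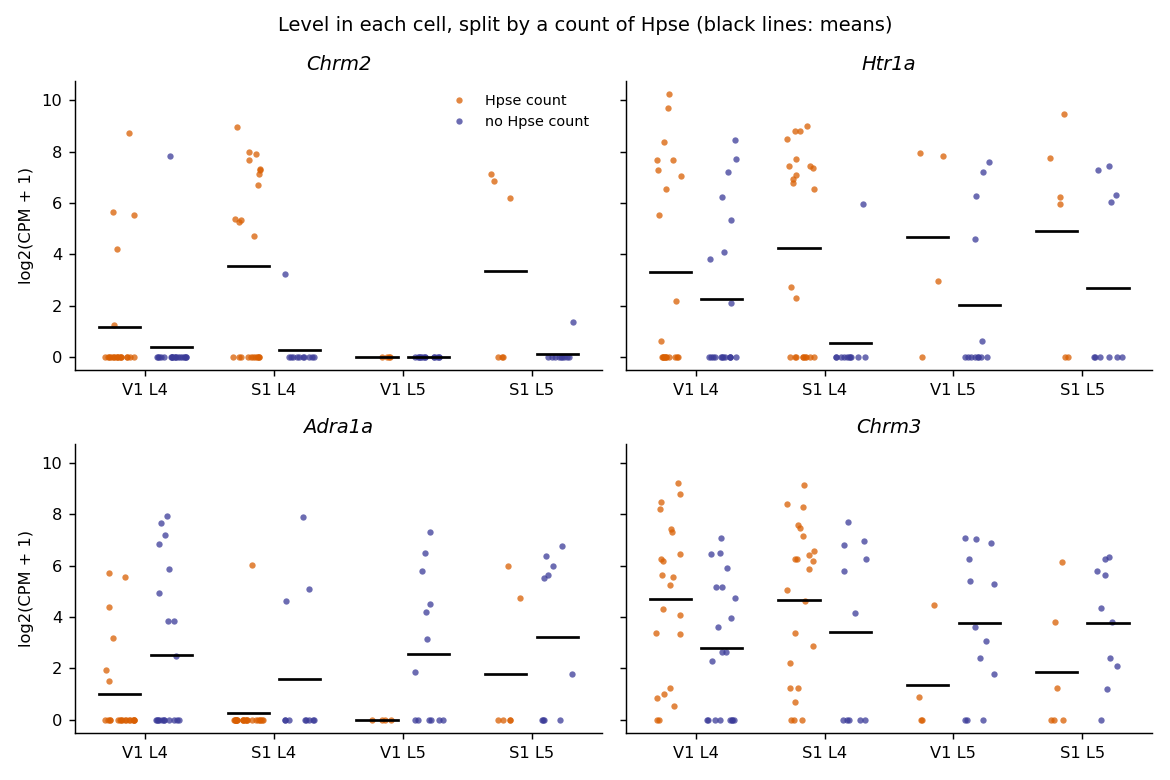
Level of *Chrm2*, *Htr1a*, *Adra1a* and *Chrm3* in each kept cell (y axis, log2(CPM + 1)) by area and layer (x axis), in cells with a count of *Hpse* (orange) and without (blue); black lines are means over cells and points are spread sideways at random. Most cells above 0 for *Chrm2* are orange and most for *Adra1a* are blue, and many cells of both colours stand at 0.

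*Chrm2* was also read less often in cells with *Calb2*, the calretinin gene that names another SOM+ type. This split is not separate from that by *Hpse*, since only 8 cells had counts of both. No share of all genes is given for it, and it is a description only. In V1 L4 *Chrm2* was read in 0 of 20 cells with *Calb2*, which allows up to 15%, and in 6 of 22 without. Over all groups it was 1 of 28 against 22 of 81 cells, and that 1 cell also had a count of *Hpse*. Among the 47 cells with *Hpse* and without *Calb2*, 19 had a count of *Chrm2*. Among cells without *Hpse* it was read in 0 of 20 with *Calb2* and 3 of 34 without. *Adra1a* was not divided by *Calb2*, with 9 of 28 against 25 of 81 cells.

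Differences between areas and layers were taken as differences of the mean log2(CPM + 1) over cells, and a gene was counted where the difference was 1 or more (2-fold), and more strictly where it also exceeded the SD of the differences within single recording days. In L4, 2 of the 8 receptors past the filter differed 2-fold between S1 and V1, against 14.9% of all genes, and 0 by the stricter count, which 3.79% of all genes met. *Chrm2* was higher in S1 L4 (2.499 against 0.79, a difference of 1.71 with an SD of 1.81 over 5 days) and *Adra1a* lower (0.70 against 1.74, a difference of −1.04 with an SD of 2.51). *Chrm2* was higher in S1 on 3 of these 5 days and lower on 2, and *Adra1a* was lower on 3, equal on 1 and higher on 1. The *Adra1a* difference was under 2-fold when the recording day 1, 3, 4, 5 or 7 was left out, at −0.72 without day 3. Both differences were larger in the first recording series, at 2.62 and −1.74, than in the second, at 0.86 and −0.33. The median difference of the 8 receptors was 0.26, beside 0.01 over all genes. Within the cells that had a count of *Hpse*, *Chrm2* differed between S1 L4 and V1 L4 by 2.398 and *Adra1a* by −0.75. The oligodendrocyte genes and *Pvalb* were also higher in S1 L4 than in V1 L4. Among cells without *Pvalb* the difference of *Chrm2* was 2.32, in 16 S1 and 32 V1 cells, where 24.8% of all genes differed 2-fold. Among those without *Mbp* it was 5.01, in 8 and 11 cells, where 44% of all genes differed 2-fold.

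In L5, 1 of the 8 receptors differed 2-fold between the areas, against 30.6% of all genes, and the same receptor passed the stricter count, against 12.8%. This was again *Chrm2*, higher in S1 L5 (1.35) than in V1 L5 (0) by 1.35, with an SD of 1.33 over 4 days. It was higher in S1 on 3 of the 4 days and at 0 in both areas on the remaining day. Leaving out the third or the fifth recording day reduced the difference to 1.11 and 0.78, and neither passed the stricter count. Among cells without *Pvalb*, which was read in 7 of 16 S1 L5 and 1 of 17 V1 L5 cells, it was 0.92, under 2-fold, in 9 S1 and 16 V1 cells. The median over the 8 receptors was 0.30, near the 0.22 over all genes.

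Between layers only cells of the first recording series were compared. In V1, 0 of the 8 receptors differed 2-fold, against 32.8% of all genes, and 0 by the stricter count, against 17% of all genes. The V1 differences within days came from 2 days, with 2 and 3 V1 L4 cells. The SD in the stricter count of V1 is thus a weak measure of spread. In S1, 3 of 8 differed 2-fold, against 30.8%, and 1 by the stricter count, against 13.8%. That was *Adra1a*, with a mean of 2.68 in S1 L5 and 0.81 in S1 L4, a difference of 1.86 with an SD of 0.86 over 3 days, on each of which L5 was higher, by 3.84, 2.76 and 2.15. It had counts in 8 of 16 L5 and 2 of 16 L4 cells, and the difference was 1.11 without the third recording day. With a pseudocount of 10 it was 0.81, under 2-fold. *Chrm2* was lower in S1 L5 than in S1 L4 by 1.73 and *Chrm3* by 1.40, with SDs of 4.34 and 1.45 over days. The *Chrm2* difference rested on the fourth recording day, whose 3 S1 L4 cells held 1284 counts of *Chrm2* among them, and it was −0.02 without that day. The *Chrm3* difference was −0.50 without the fifth day. The median over the 8 receptors was −0.12 in S1 and −0.37 in V1, beside 0.24 and 0.10 over all genes. The S1 and V1 L4 groups enter both the area and the layer comparisons, so the values for *Adra1a* and *Chrm2* are not independent of each other.

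**Figure D5:**
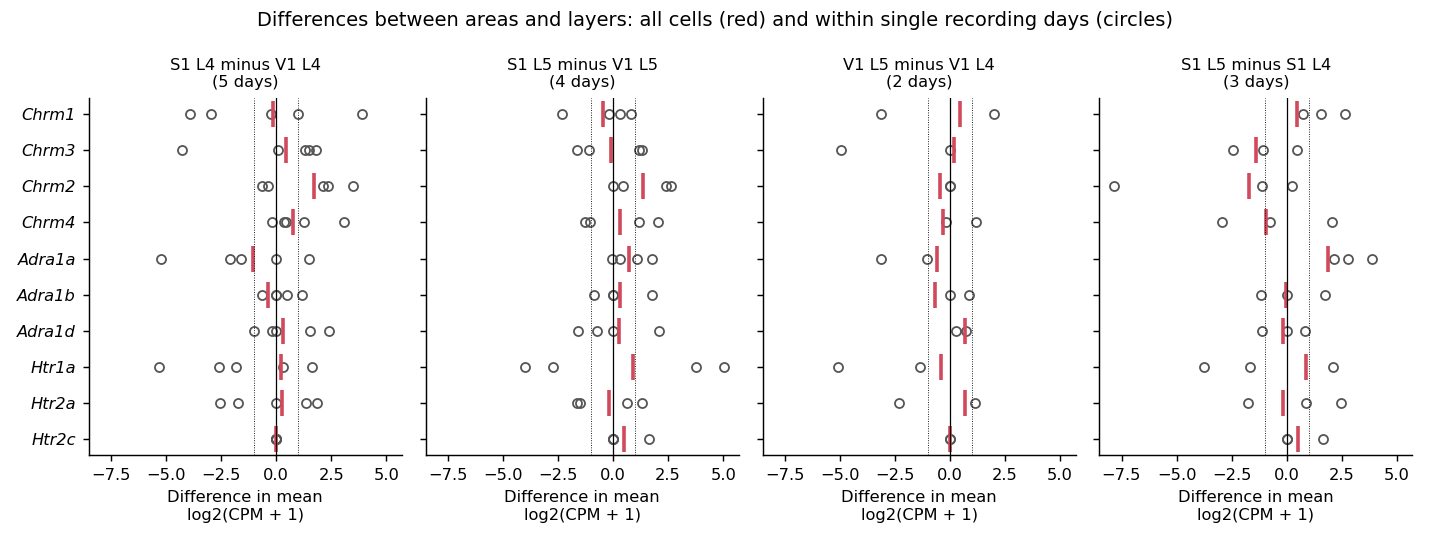
Difference of the mean log2(CPM + 1) (x axis) of each receptor (y axis) in the 4 comparisons, over all cells (red) and within each recording day with at least 2 cells of both groups (circles); dotted lines mark a 2-fold difference. *Adra1a* and *Chrm1* lie above 0 on the 3 days of S1 L5 minus S1 L4, and for most other receptors the circles lie on both sides of 0.

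Pairs of receptors were weakly related across cells. Over the 28 pairs of the 8 receptors, with each cell centred on its group mean, Pearson's r ran from −0.14 for *Chrm2* and *Adra1a* to 0.23 for *Chrm3* and *Htr2a*. *Chrm2* and *Adra1a* were read together in 3 cells, where their shares alone would give 7.17, and *Chrm2* and *Htr1a* in 16, where their shares would give 10.55. These points share the depth of each cell, and weak correlations in sparse counts are given as a description only. The genes most alike to each receptor over the kept cells reached r of 0.34 to 0.47. For *Chrm2* they were *Suox* (0.47) and *Ppp2r3d* (0.37), for *Chrm1* *Manea* (0.41), for *Chrm3* *Hs6st3* (0.39) and *Akap6* (0.37), and for *Chrm4* *Necab3* (0.40) and *Fkbp14* (0.40). For *Adra1a* they were *Gstz1* (0.42) and *D17H6S53E* (0.42), for *Adra1b* *Ccl25* (0.40) and *Ppp1r13l* (0.40), for *Htr1a* *U2af2* (0.40) and *Ccdc91* (0.38), and for *Htr2a* *Pkn2* (0.37) and *G530011O06Rik* (0.34).

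Of the 18 other receptors of the same transmitters, 2 passed the count filter. *Adrb1*, the β1-adrenergic receptor, was read in 67 cells, more than any α1 receptor, and *Htr5a* in 38. *Chrm5* was read in 1 cell, and the α2-adrenergic receptor *Adra2a* in 16. *Htr5a* was higher in S1 L5 than in V1 L5 by 1.55 (SD 1.18 over days) and lower in V1 L5 than in V1 L4 by 1.44 (SD 1.42), and *Adrb1* passed the stricter count in none of the 4 comparisons. Of 39 genes of the signalling that follows these receptors and of transmitter breakdown, 32 passed the filter. Between S1 L5 and S1 L4 7 of them were higher and 2 lower by the stricter count, which 9.88% and 3.96% of all genes met in these directions, led by *Rgs4* (2.98, SD 1.99), which speeds the turn-off of Gi and Gq, *Prkcb* (2.80, SD 0.59), a protein kinase C, *Rgs7* (2.68, SD 0.26), another regulator of Gi/o, and *Gnai1* (2.30, SD 1.48), a Gi subunit. *Gnai1* (2.63, SD 0.37) and *Rgs7* (1.64, SD 0.36) were also higher in V1 L5 than in V1 L4, where *Kcnq3*, a subunit of the M-current channel that muscarinic receptors close, was lower by 1.23 (SD 1.06). These 3 of 32 stand against 17% of all genes. The SDs between the V1 layers, here and for *Htr5a*, come from 2 days only and are a weak measure of spread. Between S1 L5 and V1 L5 *Gnai3* (2.56, SD 2.42) and *Prkcb* (2.13, SD 1.89) were higher and *Maoa*, which breaks down serotonin and noradrenaline, was lower by 1.22 (SD 0.66), again 3 of 32, against 12.8% of all genes. In both comparisons the share of the list was below that of all genes. Between S1 L4 and V1 L4 none of the 32 passed the stricter count. The median difference of the 32 genes was −0.13 in L4 and 0.18 in L5 between areas, and 0.09 in each area between layers, beside 0.01, 0.22, 0.10 and 0.24 over all genes.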

How the data were processed

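Single SOM+ cells were sequenced by Patch-seq after whole-cell recording. Per the labels and the submitters' processing notes, reads were demultiplexed with bcl2fastq 2.20 and aligned to mm10 with STAR 2.4.2a. The deposited read counts per gene were not normalized, and the authors also deposited RPKM on RefSeq models. There were no molecular identifiers, so reads are not molecules and all intervals cover counting error only.

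The 24490 gene entries were summed to 23998 symbols, counts were divided by each cell's total to give CPM, and levels were log2(CPM + 1). A gene was compared where at least 10 kept cells had 32 or more counts, which 9993 symbols met. *Adra1d* and *Htr2c* did not. Of the 9 cells left out, 4 had fewer than 1500 genes, 4 had no *Sst* count and 1 had more *Slc17a7* than *Gad1* plus *Gad2*. Groups came from the labelled area and layer, and recording days and series from the dates in the cell names. Since cells are not replicates and no animal is labelled, each group was 1 sample and no p-value was computed. The spread between days may in part be spread within a mouse, since the study's methods name fewer mice than days. A count in 0 cells was taken to allow 3 cells of the total. Positions are from GENCODE M21 on GRCm38, and promoter windows were found for 7 of the 10 receptors (*Chrm1*, *Adra1a* and *Adra1d* had none). The calculations were tested on simulated data.

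The receptors and gene lists were chosen with earlier results of these data known. All receptors of the set were named, with the 2 genes most alike to each that passed the filter (1 of these genes is not reported here) and up to 4 genes per list that led a comparison. The split by *Hpse* and the values without *Pvalb* or *Mbp* cells were chosen after seeing the data. Alternatives changed the pseudocount to 10, the filter, the scaling (TMM of edgeR 4.0.16, total without *Rn45s*), the gene limit to 4000, the depth to 250000 reads, the unit to RPKM, the summary and the days used. Calculations used pandas 2.3.3 and NumPy 2.4.6 in Python 3.11.15, intervals SciPy 1.17.1, plots matplotlib 3.10.9, and TMM factors R 4.3.3.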

Additional observations from a re-analysis of the deposited data

Results flagged for a closer look

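*Adra1a* had opposite signs between layers in the areas within recording days. Within recording days it was lower in V1 L5 than in V1 L4 on both days, by −2.098 on the log2 scale on average, and higher in S1 L5 than in S1 L4 on all 3 days, by 2.918. The V1 value rests on days with 2 and 3 V1 L4 cells. Over all cells of the first series it was −0.59, under 2-fold, and with both series 0.22, with L5 higher. The difference between the areas was not tested.

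Cells that were left out also held receptor counts. An S1 L4 cell of day 2 with no *Sst* count had *Adra1a* at 83.51 CPM and *Htr2a* at 9.878 CPM. The S1 L4 cell of day 3 with no *Sst* count had *Adra1a* at 26.73 CPM and *Chrm3* at 5.847 CPM, that of day 4 had *Chrm4* at 43.95 CPM, and that of day 5 had *Chrm1* at 39.08 CPM. These 4 cells had 844, 601, 2662 and 29 counts of *Pvalb*. A V1 L4 cell of day 3 under the gene limit had *Htr1a* at 927.1 CPM. The V1 L5 cell of day 5 with more *Slc17a7* than *Gad1* plus *Gad2* had *Adra1a* at 56.6 CPM, *Chrm4* at 47.38 CPM and *Chrm1* at 28.96 CPM.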

How the results depend on the processing

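No paired analysis was possible because no result comes from a test and the replicate numbers are accession order only; recording days are shared, and the differences within them were used as values. Their mean turned *Htr1a* from 0.24 to −1.56 between S1 and V1 L4 and from 0.88 to −1.11 between the layers of S1, where it was 2.36 without day 3, so its direction was not stable. Of the recomputed differences 669 stayed within the spread between days and 41 moved, and 52 counts of receptors moved. Between S1 and V1 L4 the 2 receptors past 2-fold became 0 with a pseudocount of 10 or in the second recording series, 1 with cells without *Sst* kept or with RPKM, 5 without *Mbp* cells, and 1 to 2 with a day left out. The share of all genes past 2-fold, 14.9% in the main setting, moved as well. It was 2.13% with a pseudocount of 10, 14.8% with cells without *Sst* kept and 44% without *Mbp* cells. The stricter count of 0 became 1 with 4000 or more genes, without *Pvalb* cells, with pooled CPM or in the first series, and was 0 to 1 with a day left out. Between S1 and V1 L5 the 1 receptor past 2-fold became 0 with a pseudocount of 10, 2 with TMM, with 4000 or more genes, with 250000 reads or without *Pvalb* cells, 3 with pooled CPM, and 0 to 2 with a day left out. Of all genes 30.6% passed in the main setting and 7.05% with a pseudocount of 10. The share was 31.2% with TMM, 30.5% with 4000 or more genes, 32.8% with 250000 reads and 38.3% without *Pvalb* cells. The stricter count of 1 became 0 with a pseudocount of 10, with 4000 or more genes or with RPKM, 2 with pooled CPM, and 0 to 1 with a day left out. Between layers in V1 the 0 receptors became 1 with 4000 or more genes, 3 without *Mbp* cells or with within-day means, 2 with pooled CPM, and 0 to 2 with a day left out, and the stricter 0 became 2 with within-day means or pooled CPM. There the share of all genes past 2-fold was 32.8% in the main setting, 36% with 4000 or more genes and 56% without *Mbp* cells. Between layers in S1 the 3 became 5 without *Pvalb* cells, with within-day means or with pooled CPM, and the stricter 1 became 2 with 4000 or more genes, with RPKM, with within-day means or with pooled CPM, and 1 to 2 with a day left out. Past 2-fold there were 30.8% of all genes in the main setting and 41.3% without *Pvalb* cells. For RPKM, pooled CPM, within-day means, single series, days left out and the stricter counts, no share of all genes is given. Those moves cannot be set against the other genes. The 3 receptors that the *Hpse* split divided by 20 points became 5 in S1 L4 or V1 L5 alone and 6 in S1 L5 alone. These groups had *Hpse* in 23, 4 and 6 cells. In smaller sets of cells a difference of 20 points is easier to reach. The share of all genes that passed it is given only for all kept cells together. The counts within single groups therefore cannot be read as a stronger split. In V1 L4 alone, with *Hpse* in 22 cells, the count stayed at 3 but held other receptors, *Chrm1*, *Chrm3* and *Htr2a*. There *Chrm2* differed by 17.7, *Adra1a* by −17.7 and *Htr1a* by 10 points. The cause of these changes was not tested. The share of *Chrm4* in V1 L4 (30.95%) was 11.9% at 5 or more counts and 14.3% at 250000 reads. Without *Mbp* cells S1 L5 had 1 cell, and the receptors were not compared there. An undetected transcript is not shown to be absent.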
